A study of Mus musculus with 14 samples.

Results

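The conjugation enzymes described here are the glutathione transferases (GSTs), the UDP-glycosyltransferases of the Ugt1, Ugt2 and Ugt3 families (UGTs) and the sulfotransferases (SULTs) of mouse liver. Members were chosen by symbol alone, as every gene with a probe whose symbol starts with Gsta, Gstm, Gstp, Gstt, Gstk, Gsto, Gstz, Mgst, Ugt1, Ugt2, Ugt3 or Sult. They numbered 51 of the 16593 genes with a probe, namely 24 GST genes, 15 UGT genes and 12 SULT genes. Whole-liver RNA was profiled on Illumina bead arrays, 1 array per sample, 1 week after mice received a plasmid by hydrodynamic delivery, a rapid high-volume injection into a vein that carries DNA into hepatocytes. The groups were Alb-Cre mice given an interleukin 13 (IL-13) plasmid (n = 3), Alb-Cre mice given a plasmid for the green fluorescent protein EGFP (n = 4), wild-type mice given the IL-13 plasmid (n = 3) and wild-type mice given the EGFP plasmid (n = 4). Per the series title, the Cre mice carry a floxed IL-4 receptor alpha gene, Il4ra. The albumin promoter drives Cre in hepatocytes, and it can also act in bile duct cells, which share a precursor with them. IL-13, a type 2 cytokine, signals through a receptor that contains the protein of Il4ra. No probe carried that symbol, so the deletion itself is not analysed here. The labels give neither the age of the mice nor whether samples are separate animals, so p-values cover only the variation between the arrays of a group.

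Conjugation is the step of detoxification in which a cell attaches a polar group to a foreign compound, a hormone, bilirubin or a bile acid, so that the product can be exported into bile or urine. GSTs attach the tripeptide glutathione to reactive electrophiles, UGTs attach a sugar from a nucleotide donor, usually UDP-glucuronate, and SULTs transfer sulfate from the donor PAPS. Hepatocytes carry out all 3 reactions, and many of these genes differ between male and female mice.

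The 14 arrays were alike in depth, with 11554 to 13261 of 25697 probes detected on each (45.0 to 51.6%) and a mean intensity between 283 and 354. Of the 51 members, 42 had a probe detected on at least 3 arrays and were tested, and 33 of these were detected on all 14 arrays. The other 9 were Gstt4, Ugt2a1, Ugt2a2, Ugt2b37, Ugt2b38, Sult1c1, Sult1e1, Sult2a6 and Sult4a1. Sult1e1, the estrogen sulfotransferase, was detected on 1 array, in the wild-type IL-13 group. The genes Ugt1a1 and Sult2a1 have no probe under those symbols and are not analysed here. The arrays fell into 2 sets by sex-linked transcripts. The X-inactivation RNA Xist was found on all 8 EGFP arrays and, in wild type, on replicates 1 and 2 given IL-13. Transcripts of the Y-linked Eif2s3y were detected, and Xist was not, on the 3 Alb-Cre IL-13 arrays and on wild-type IL-13 replicate 3. In Alb-Cre, plasmid and sex pattern therefore cannot be told apart from these groups alone. Whether labels or samples were mixed up was not tested. In wild type, replicate 3 carried the pattern and was also the IL-13 array on the second slide.

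Hepatocyte markers moved with IL-13 as well. The summed intensity of 9 hepatocyte markers lay between 44871 and 50082 on Alb-Cre IL-13 arrays and between 49444 and 55787 on Alb-Cre EGFP arrays. It lay between 36080 and 39332 on wild-type IL-13 arrays and between 51838 and 55677 on wild-type EGFP arrays. Of these markers 1 fell and 0 rose in Alb-Cre, and 7 fell and 0 rose in wild type. In RNA of whole liver, fewer hepatocytes and less RNA per hepatocyte cannot be told apart. Markers of other cells changed too. Of 7 macrophage markers 4 rose and 0 fell in Alb-Cre, and 4 rose and 2 fell in wild type. Their summed intensity lay between 3132 and 4300 with IL-13 and between 1984 and 2370 with EGFP in Alb-Cre, and between 3098 and 4310 with IL-13 and between 1855 and 2366 with EGFP in wild type. Of 6 neutrophil markers 5 rose and 0 fell in each genotype. Of 5 cholangiocyte markers 3 rose and 0 fell in each. Of 10 stellate cell and fibroblast markers 6 rose and 1 fell in Alb-Cre, and 6 rose and 2 fell in wild type. Of 8 endothelial markers 1 rose and 1 fell in Alb-Cre, and 1 rose and 2 fell in wild type. Their summed intensity lay between 1228 and 2278 with IL-13 and between 3541 and 4198 with EGFP in Alb-Cre, and between 1079 and 1517 with IL-13 and between 3515 and 3860 with EGFP in wild type. Among all genes tested, 11.1% rose and 7.83% fell with IL-13 in Alb-Cre, and 21.5% rose and 19.2% fell in wild type. The part of these cell types in the results for the enzymes was not tested. Of 11 genes of the IL-13 response, such as the macrophage product Retnla, 7 rose in Alb-Cre and 8 in wild type.

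The promoter windows below, from RefSeq on build GRCm38.p6, belong to the members on which the results turn. Each is 300 bases long and spans a gene's start. Sult2a8 and Ugt3a1 had the largest falls of the members in wild type, Gstp1 the rise seen in both genotypes, Gsta1 a rise called in Alb-Cre, and Gstm6 a response that differed between genotypes. Capitals mark a match, on either strand, to the STAT5 letters TTCNNNGAA, N being any base, or to the STAT6 letters, which hold the same outer bases with 1 more N between them.

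Sult2a8 (chr7:14446538-14446837, minus strand): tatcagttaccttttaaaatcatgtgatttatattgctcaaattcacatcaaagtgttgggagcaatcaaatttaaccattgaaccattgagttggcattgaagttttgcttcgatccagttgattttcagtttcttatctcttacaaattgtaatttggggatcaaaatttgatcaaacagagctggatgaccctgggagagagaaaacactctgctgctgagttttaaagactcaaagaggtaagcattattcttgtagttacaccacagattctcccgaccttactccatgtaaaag
Ugt3a1 (chr15:9279579-9279878, plus strand): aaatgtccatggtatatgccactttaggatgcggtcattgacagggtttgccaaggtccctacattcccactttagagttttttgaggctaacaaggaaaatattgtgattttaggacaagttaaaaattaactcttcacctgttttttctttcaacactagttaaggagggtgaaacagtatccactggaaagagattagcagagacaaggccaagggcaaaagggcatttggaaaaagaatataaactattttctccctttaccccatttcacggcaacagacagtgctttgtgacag
Gstp1 (chr19:4037863-4038162, minus strand): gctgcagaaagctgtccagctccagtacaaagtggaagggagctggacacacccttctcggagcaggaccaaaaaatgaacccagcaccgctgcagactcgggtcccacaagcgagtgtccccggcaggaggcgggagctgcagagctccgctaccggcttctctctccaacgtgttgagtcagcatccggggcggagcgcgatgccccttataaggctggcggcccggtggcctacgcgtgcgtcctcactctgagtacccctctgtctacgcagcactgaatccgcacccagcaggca
Gsta1 (chr9:78230419-78230718, plus strand): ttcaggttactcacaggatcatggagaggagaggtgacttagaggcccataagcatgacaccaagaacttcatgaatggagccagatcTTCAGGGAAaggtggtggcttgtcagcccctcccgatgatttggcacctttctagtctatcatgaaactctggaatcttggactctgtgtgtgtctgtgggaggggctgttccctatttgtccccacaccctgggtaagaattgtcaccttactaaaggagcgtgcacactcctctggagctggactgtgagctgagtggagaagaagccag
Gstm6 (chr3:107943349-107943648, minus strand): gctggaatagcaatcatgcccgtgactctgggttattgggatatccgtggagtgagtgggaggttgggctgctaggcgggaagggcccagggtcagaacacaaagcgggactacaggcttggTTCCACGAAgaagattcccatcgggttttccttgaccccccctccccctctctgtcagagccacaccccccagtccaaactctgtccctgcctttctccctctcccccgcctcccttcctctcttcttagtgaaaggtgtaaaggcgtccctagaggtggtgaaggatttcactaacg
Gstm6 (chr3:107943685-107943984, minus strand): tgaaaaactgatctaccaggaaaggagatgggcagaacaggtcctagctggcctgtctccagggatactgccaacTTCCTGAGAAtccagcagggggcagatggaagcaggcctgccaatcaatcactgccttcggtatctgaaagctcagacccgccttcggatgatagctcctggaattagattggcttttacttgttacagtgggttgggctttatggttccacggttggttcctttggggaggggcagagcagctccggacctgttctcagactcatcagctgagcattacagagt

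Windows were present for 39 of the 42 tested members, 50 in all. The STAT5 letters, the kind of site bound by the factor that relays growth hormone in liver, occurred in 6 of the 50 windows, beside 8.30% of all 32851 windows. The STAT6 letters, the kind of site bound by the factor that relays IL-4 and IL-13, occurred in 6 of the 50, in the windows of Gstm1, Gstm3, Gstm6, Sult1a1 and Ugt1a2, beside 6.95% of all windows. In Gstm6, whose RefSeq entries give 3 windows, 1 holds the STAT5 letters, at position -128, and the other two hold the STAT6 letters, at -175 and -244. Positions count from the gene start to the first base of the match. The antioxidant response element core TGACNNNGC, bound by the stress factor Nrf2, occurred in 3 of the 50 windows, those of Gsta3, Gstm5 and Mgst1, beside 12.4% of all windows. Among the windows printed, Gsta1 holds the STAT5 letters at -162, and those of Sult2a8, Ugt3a1 and Gstp1 hold none of the 3 motifs as searched. Only those exact letters were searched. The Gstp1 window does hold TGAGTCAGC, which differs from the antioxidant response element core searched by 1 base, a G in place of the C. A match of letters is a description of the window and not evidence of binding.

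In Alb-Cre liver 11 of the 42 members fell with IL-13 and 3 rose, and in wild-type liver 24 fell and 4 rose. A member is said to have risen or fallen where limma's test over 9711 genes gave a Benjamini-Hochberg adjusted p under 0.05. Among all genes tested, 7.83% fell and 11.1% rose in Alb-Cre, and 19.2% fell and 21.5% rose in wild type. The members' falls thus made up a larger share than those of all genes in both genotypes, as a description. The members' median log2 change was -0.25 in Alb-Cre, where that of all genes was -0.02, and -0.56 in wild type, where that of all genes was 0.00. The 11 members that fell in Alb-Cre all fell in wild type, where 13 more did. A further 12 members passed in neither genotype. Gstp1 alone rose in both, Gsta1 and Gstp2 rose in Alb-Cre only by the threshold, and Gstt2, Ugt2b35 and Sult1a1 in wild type only. Of these 5, the test of the difference between genotypes passed for Gstt2 alone. It did not pass for Gsta1 (0.79 ± 0.51, adjusted p = 0.360), Gstp2 (0.88 ± 0.44, adjusted p = 0.219), Ugt2b35 (-0.14 ± 0.32, adjusted p = 0.828) or Sult1a1 (-0.17 ± 0.32, adjusted p = 0.797). With the slide as a block the counts were 14 in Alb-Cre and 29 in wild type, beside 1891 and 4027 of all 9711 genes. On slide 1 alone they were 8 and 21, beside 851 and 2669 of all genes, where the main fit had 1840 and 3952. Slide 2 held 1 IL-13 array of each genotype, so its counts are not set beside these.

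**Figure D1:**
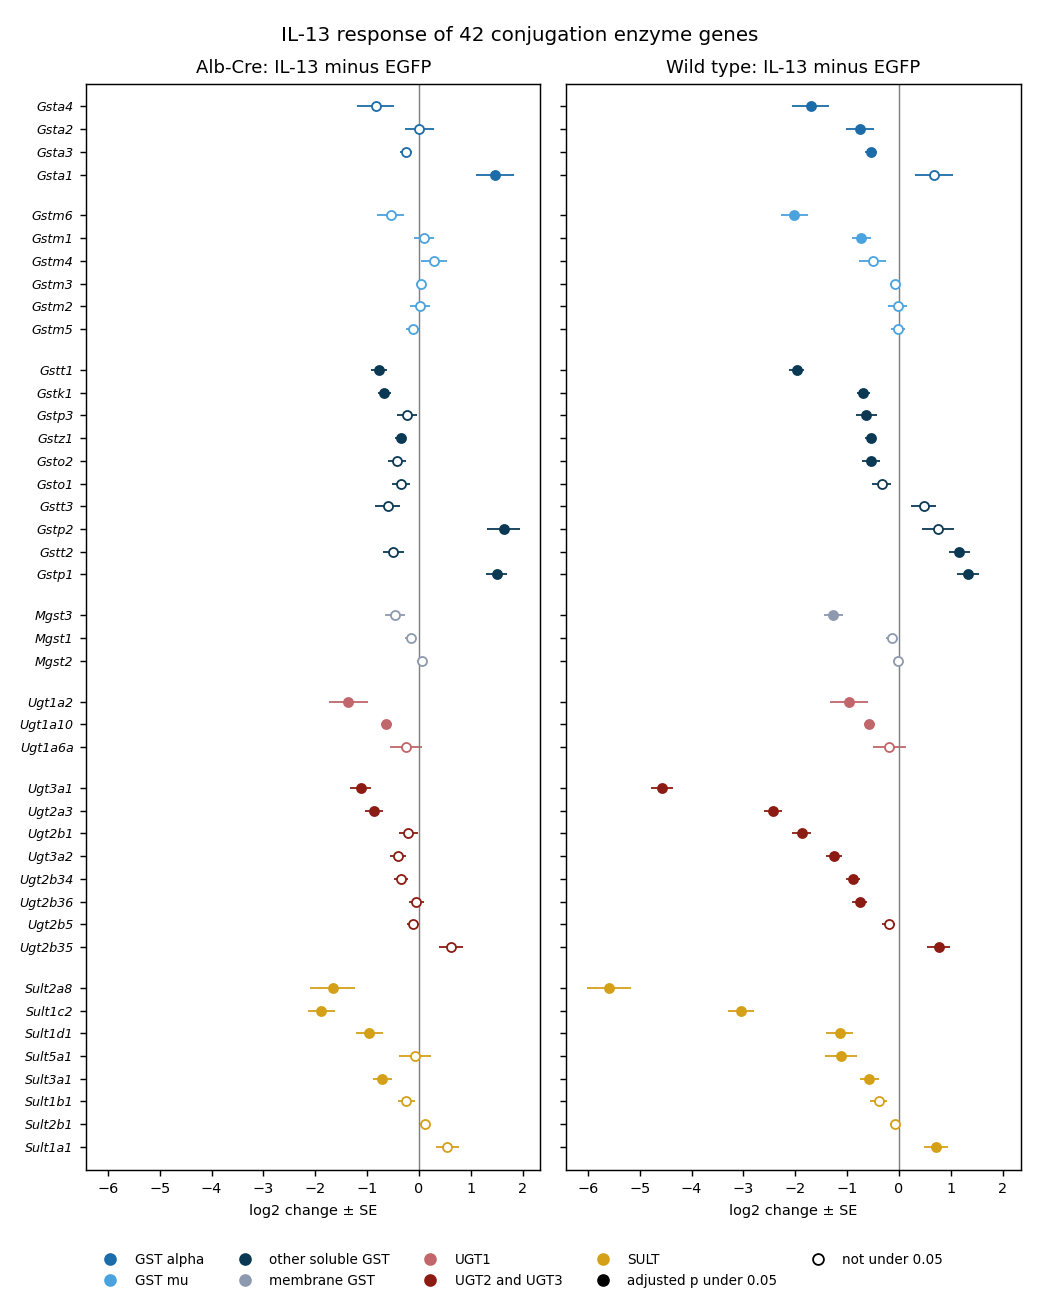
Log2 change with IL-13 (IL-13 minus EGFP, x axis) of the 42 tested members in Alb-Cre (left) and wild type (right), with the standard error of limma as a bar, filled where the adjusted p was under 0.05 and coloured by class. In Alb-Cre 11 members lie filled to the left of 0, against 24 in wild type, and the points farthest left in wild type are Sult2a8 (-1.66 in Alb-Cre, -5.59 in wild type) and Ugt3a1 (-1.13 and -4.57).

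The classes differed in how many members fell. In Alb-Cre the calls lay in 4 SULT genes, 2 of the UGT2 and UGT3 group, 2 UGT1 genes and 3 of the other soluble GSTs, while 0 members of the alpha, mu and membrane GSTs fell. In wild type 6 of 8 UGT2 and UGT3 genes fell, with a class median of -1.07 on the log2 scale, and 5 of 8 SULT genes, with a median of -0.85. GST alpha had 3 of 4 (median -0.64), UGT1 2 of 3 (-0.57), the other soluble GSTs 5 of 10 (-0.43), GST mu 2 of 6 (-0.29) and the membrane GSTs 1 of 3 (-0.14). In Alb-Cre the medians were -0.47 for SULT, -0.27 for UGT2 and UGT3, -0.12 for GST alpha, -0.63 for UGT1, -0.39 for the other soluble GSTs, 0.03 for GST mu and -0.16 for the membrane GSTs. With the sex pattern as a covariate, the only falls called in Alb-Cre were in 2 of the UGT2 and UGT3 genes. The Alb-Cre medians were then -0.58 for SULT, -0.33 for UGT2 and UGT3, 0.74 for GST alpha and -1.39 for UGT1. They were -0.14 for the other soluble GSTs, 0.25 for GST mu and 0.28 for the membrane GSTs. Classes of 3 to 10 genes were described and not tested against each other.

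GST alpha enzymes reduce organic peroxides and conjugate lipid aldehydes, and they changed differently among themselves. Gsta4, whose product conjugates the lipid peroxidation aldehyde 4-hydroxynonenal, measured 8.74, 8.10 and 9.01 (normalised log2 intensity) on Alb-Cre IL-13 arrays and 9.14, 9.57, 9.51 and 9.60 on Alb-Cre EGFP arrays. It measured 8.90, 7.82 and 6.65 on wild-type IL-13 arrays and 9.46, 9.53, 9.40 and 9.57 on wild-type EGFP arrays. Every IL-13 array lay below every EGFP array of its genotype, and the wild-type IL-13 arrays spread over more than 2 log2 units, with replicate 3 lowest. The change in Alb-Cre did not pass (-0.84 ± 0.35, log2 change with its standard error, adjusted p = 0.116) and the fall in wild type did (-1.70 ± 0.35, adjusted p = 0.00109). The test of the difference between the responses did not pass (0.87 ± 0.50, adjusted p = 0.296).

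Gsta1 was the alpha gene with a rise. It measured 6.04, 5.77 and 6.53 on Alb-Cre IL-13 arrays, all above the 4.37, 4.75, 5.08 and 4.38 on Alb-Cre EGFP arrays. In wild type it measured 4.59, 6.68 and 4.86 with IL-13 and 4.64, 4.93, 4.56 and 4.67 with EGFP, so that only replicate 2 stood above the EGFP arrays. The change was 1.47 ± 0.36 in Alb-Cre (adjusted p = 0.00942) and 0.68 ± 0.36 in wild type (adjusted p = 0.154). Gsta1 was detected on only 2 of the 4 Alb-Cre EGFP arrays, so the size of the Alb-Cre rise is not exact. On slide 1 alone the Alb-Cre change was 1.35 and did not pass (adjusted p = 0.183).

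Gsta3, a liver GST that in mouse conjugates the aflatoxin epoxide, read 13.12, 13.20 and 13.24 on Alb-Cre IL-13 arrays and 13.41, 13.56, 13.35 and 13.43 on Alb-Cre EGFP arrays. In wild type it read 12.92, 13.21 and 12.68 with IL-13 and 13.46, 13.62, 13.46 and 13.34 with EGFP. Its IL-13 arrays lay below its EGFP arrays in both genotypes, and the change did not pass in Alb-Cre (-0.25 ± 0.12, adjusted p = 0.159) and passed in wild type (-0.53 ± 0.12, adjusted p = 0.00181). A second, dimmer Gsta3 probe, detected on all 14 arrays, fell in both, by 0.64 on the log2 scale in Alb-Cre and by 1.69 in wild type. The responses of that probe differed by 1.05 (limma over all kept probes, adjusted p = 0.0137), beside 0.28, not called, for the brighter probe.

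Gsta2 measured 7.04, 6.81 and 7.68 with IL-13 and 6.75, 7.37, 7.22 and 7.34 with EGFP in Alb-Cre, where the groups overlapped. It measured 6.35, 7.53 and 6.33 with IL-13 and 7.45, 7.52, 7.16 and 7.80 with EGFP in wild type, where replicate 2 lay among the EGFP arrays. The wild-type change of -0.75 ± 0.27 passed narrowly (adjusted p = 0.0387), and the call was lost without IL-13 replicate 1 or 3 or EGFP replicate 1, 2 or 4. Over the 14 fits that each left out 1 array the change lay between -1.14, without IL-13 replicate 2, and -0.55, without replicate 3.

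GST mu enzymes conjugate a broad range of aromatic electrophiles, and their genes lie side by side on chromosome 3. Gstm6 measured 9.69, 8.87 and 9.89 on Alb-Cre IL-13 arrays and 10.18, 9.86, 9.54 and 10.51 on Alb-Cre EGFP arrays, where the groups overlapped. It measured 7.56, 8.43 and 7.87 on wild-type IL-13 arrays, all below the 9.75, 10.03, 10.16 and 9.94 on wild-type EGFP arrays. The change was -0.54 ± 0.26 in Alb-Cre (adjusted p = 0.165) and -2.02 ± 0.26 in wild type (adjusted p = 1.32e-05). The responses differed by 1.47 ± 0.36 (adjusted p = 0.0147). Its second probe gave -0.81 in Alb-Cre, not called, and -2.57 in wild type.

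Gstm1 read 11.74, 11.75 and 11.81 with IL-13 and 11.96, 11.67, 11.38 and 11.67 with EGFP in Alb-Cre. It read 11.06, 11.20 and 10.36 with IL-13 and 11.82, 11.76, 11.32 and 11.48 with EGFP in wild type, where the IL-13 arrays lay lower without overlap. The change was 0.10 ± 0.19 in Alb-Cre (adjusted p = 0.781) and -0.73 ± 0.19 in wild type (adjusted p = 0.00495). The difference of 0.82 ± 0.26 passed narrowly (adjusted p = 0.0496), and 10 of the 14 fits that left out 1 array did not call it.

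The other mu genes did not pass with IL-13 in either genotype. Their log2 changes were 0.03 for Gstm3, 0.02 for Gstm2, 0.30 for Gstm4 and -0.11 for Gstm5 in Alb-Cre, and -0.07, -0.03, -0.51 and -0.02 in wild type. Gstm3 was near the background, at 4.57, 4.46 and 4.48 with IL-13 and 4.63, 4.50, 4.27 and 4.49 with EGFP in Alb-Cre. In wild type it measured 4.21, 4.29 and 4.29 with IL-13 and 4.27, 4.29, 4.42 and 4.36 with EGFP and was detected on none of these 7 arrays.

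Among the other soluble GSTs, Gstp1 of the pi class rose in both genotypes. Gstp1, known as a male-biased GST of mouse liver, measured 13.67, 13.33 and 13.69 on Alb-Cre IL-13 arrays and 12.78, 11.68, 11.89 and 11.91 on Alb-Cre EGFP arrays. It measured 13.03, 13.29 and 13.10 on wild-type IL-13 arrays and 11.65, 11.84, 11.63 and 12.12 on wild-type EGFP arrays. The IL-13 arrays lay above the EGFP arrays in both genotypes. Wild-type IL-13 replicates 1 and 2 carried Xist, as the EGFP arrays did, and the cause of the rise was not tested. The rise was 1.50 ± 0.21 in Alb-Cre (adjusted p = 8.56e-05) and 1.33 ± 0.21 in wild type (adjusted p = 9.77e-05), and all 3 Gstp1 probes rose in both. The difference was 0.17 ± 0.29 (adjusted p = 0.775).

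Gstp2, its near-identical neighbour on chromosome 19, measured 7.69, 6.57 and 7.13 with IL-13 and 5.21, 5.18, 5.69 and 5.92 with EGFP in Alb-Cre. In wild type it measured 5.53, 6.44 and 6.91 with IL-13 and 5.57, 5.08, 5.98 and 5.54 with EGFP, and the groups overlapped at replicate 1. The change was 1.63 ± 0.31 in Alb-Cre (adjusted p = 0.00151) and 0.75 ± 0.31 in wild type (adjusted p = 0.0685). Probes of the 2 genes may bind each other's transcripts. Gstp3, the third gene of the cluster, did not pass in Alb-Cre (-0.23 ± 0.20, adjusted p = 0.475). It fell in wild type (-0.63 ± 0.20, adjusted p = 0.0183), where the call was lost without IL-13 replicate 1 or EGFP replicate 3, with changes from -0.76 to -0.45 over the fits that left out 1 array.

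Of the theta genes, which lie together on chromosome 10, Gstt1 fell and Gstt2 rose in wild type. In Alb-Cre the log2 changes of Gstt1, Gstt2 and Gstt3 were all below 0, and that of Gstt1 passed. Gstt1, which acts on small halogenated compounds, measured 10.26, 9.93 and 10.55 on Alb-Cre IL-13 arrays and 10.89, 11.02, 10.90 and 11.26 on Alb-Cre EGFP arrays. It measured 9.29, 9.14 and 8.91 on wild-type IL-13 arrays and 11.12, 10.91, 11.23 and 11.09 on wild-type EGFP arrays. Every IL-13 array was below every EGFP array of its genotype. It fell in Alb-Cre (-0.77 ± 0.15, adjusted p = 0.00137) and more in wild type (-1.98 ± 0.15, adjusted p = 3.70e-08), with a difference of 1.21 ± 0.21 (adjusted p = 0.00125).

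Gstt2 went the other way in wild type. It measured 8.45, 9.28 and 9.0 with IL-13 and 9.24, 9.24, 9.41 and 9.73 with EGFP in Alb-Cre, where the groups overlapped. In wild type it measured 11.10, 10.58 and 10.26 with IL-13, above the 9.67, 9.42, 9.31 and 9.54 with EGFP. The change was -0.49 ± 0.20 in Alb-Cre (adjusted p = 0.109) and 1.16 ± 0.20 in wild type (adjusted p = 2.78e-04). The responses differed by -1.66 ± 0.29 (adjusted p = 0.00139). Gstt3 showed the same signs, at -0.61 in Alb-Cre and 0.47 in wild type, neither called. Its difference of -1.08 ± 0.34 was called (adjusted p = 0.0484) but not in 12 of the 14 fits that each left out 1 array. Without wild-type IL-13 replicate 3, the Gstt3 rise in wild type passed (0.78, adjusted p = 0.0117).

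Of the remaining soluble GSTs, Gstk1, the kappa enzyme of mitochondria and peroxisomes, fell alike in Alb-Cre (-0.67 ± 0.13, adjusted p = 0.00122) and wild type (-0.69 ± 0.13, adjusted p = 3.67e-04). Its arrays ranged from 10.83 to 10.94 with IL-13 in Alb-Cre and from 11.42 to 11.65 with EGFP, and from 10.63 to 11.20 and from 11.45 to 11.73 in wild type. Gstz1, the maleylacetoacetate isomerase of tyrosine breakdown, changed by -0.35 ± 0.11 in Alb-Cre (adjusted p = 0.0295) and by -0.55 ± 0.11 in wild type (adjusted p = 5.92e-04), and the Alb-Cre call was lost without IL-13 replicate 1 or 2 or EGFP replicate 2, 3 or 4 (-0.44 to -0.28 over all fits that left out 1 array). The omega genes changed less, with Gsto2 at -0.43 ± 0.18 in Alb-Cre (not called, adjusted p = 0.111) and -0.53 ± 0.18 in wild type (adjusted p = 0.0242), and Gsto1 called in neither. The Gsto2 call was lost without wild-type IL-13 replicate 2 or EGFP replicate 1, 2 or 4 (-0.65 to -0.43 over such fits). A second, dimmer Gsto2 probe passed in neither genotype (-0.03 in Alb-Cre and -0.32 in wild type).

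**Figure D2:**
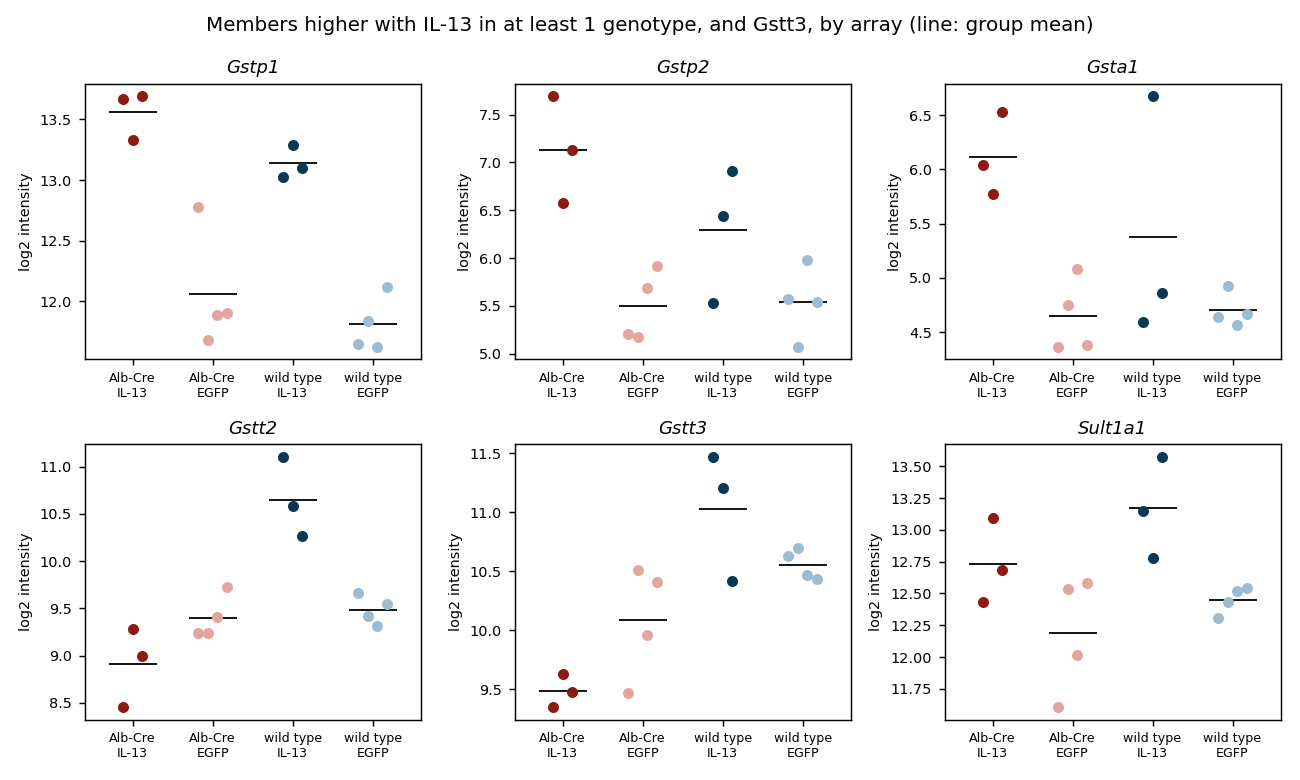
Normalised log2 intensity (y axis) of Gstp1, Gstp2, Gsta1, Gstt2, Gstt3 and Sult1a1 on every array, with groups along the x axis and a line at each group mean. The Alb-Cre IL-13 arrays of Gstp1, Gstp2 and Gsta1 all lie above the Alb-Cre EGFP arrays, while Gstt2 is above its EGFP arrays with IL-13 in wild type only.

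The membrane GSTs reduce lipid peroxides and take part in leukotriene synthesis. Mgst3 measured 8.79, 9.14 and 8.90 with IL-13 and 9.04, 9.55, 9.55 and 9.49 with EGFP in Alb-Cre, where the lowest EGFP array lay among the IL-13 arrays. It measured 8.44, 8.36 and 7.51 with IL-13 and 9.32, 9.28, 9.50 and 9.37 with EGFP in wild type, without overlap. The change was -0.46 ± 0.19 in Alb-Cre (adjusted p = 0.107) and -1.26 ± 0.19 in wild type (adjusted p = 7.10e-05), and the difference of 0.80 ± 0.27 did not pass (adjusted p = 0.0638). Mgst1, the abundant microsomal GST of liver, measured 13.75, 13.52 and 13.76 with IL-13 and 13.93, 13.81, 13.76 and 13.86 with EGFP in Alb-Cre. It measured 13.46, 13.83 and 13.76 with IL-13 and 13.79, 13.75, 13.93 and 13.81 with EGFP in wild type. Its changes of -0.16 ± 0.11 and -0.14 ± 0.11 did not pass (adjusted p = 0.342 and 0.341), nor did those of Mgst2 (0.06 and -0.02).

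The UGT1 enzymes are made from 1 locus on chromosome 1, with alternative first exons and shared later exons, so a probe in the shared part reads all of them. Whether the Ugt1a10 probe lies there was not checked, so its values may include other UGT1 transcripts. Ugt1a10 measured 11.88, 12.14 and 12.12 on Alb-Cre IL-13 arrays and 12.54, 12.65, 12.68 and 12.83 on Alb-Cre EGFP arrays. It measured 12.30, 12.15 and 12.22 on wild-type IL-13 arrays and 12.79, 12.67, 12.89 and 12.81 on wild-type EGFP arrays. All IL-13 arrays lay below all EGFP arrays of the same genotype. The fall was alike in Alb-Cre (-0.63 ± 0.10, adjusted p = 3.75e-04) and wild type (-0.57 ± 0.10, adjusted p = 3.40e-04), with a difference of -0.06 ± 0.15 (adjusted p = 0.842).

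Ugt1a2 measured 6.19, 5.62 and 6.40 with IL-13 and 6.54, 7.80, 7.54 and 7.82 with EGFP in Alb-Cre. It measured 6.22, 6.22 and 6.96 with IL-13 and 6.68, 6.88, 8.06 and 8.11 with EGFP in wild type, where the EGFP arrays of slide 2 stood above those of slide 1. The change was -1.36 ± 0.37 in Alb-Cre (adjusted p = 0.0177) and -0.97 ± 0.37 in wild type, where the adjusted p was just under 0.05 and 9 of the 14 fits that left out 1 array lost the call. The Alb-Cre call was lost without IL-13 replicate 2 or EGFP replicate 2 or 4 (-1.66 to -1.14 over such fits). Ugt1a6a, which conjugates planar phenols, had 3 probes that disagreed. The brightest did not pass, at -0.25 in Alb-Cre and -0.19 in wild type, the second fell in both (-0.80 and -0.90), and the third fell in Alb-Cre only by the threshold (-1.22, and 0.25 in wild type).

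The UGT2 and UGT3 genes held the most falls in wild type and the most differences between the 2 responses. UGT2 enzymes glucuronidate steroids and bile acids, and the human UGT3 enzymes use other sugars. Ugt3a1 measured 10.19, 9.55 and 10.41 on Alb-Cre IL-13 arrays, and 11.24, 11.26, 11.06 and 11.14 on Alb-Cre EGFP arrays. It measured 5.96, 6.62 and 7.03 on wild-type IL-13 arrays, and 11.13, 11.12, 11.11 and 11.07 on wild-type EGFP arrays. The Alb-Cre IL-13 arrays lay between the wild-type IL-13 arrays and all EGFP arrays, without overlap. It fell in Alb-Cre (-1.13 ± 0.21, adjusted p = 0.00122) and in wild type (-4.57 ± 0.21, adjusted p = 1.61e-10), and the responses differed by 3.44 ± 0.30 (adjusted p = 3.30e-06).

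Ugt3a2, its neighbour on chromosome 15, measured 12.23 to 12.29 with IL-13 and 12.55 to 12.76 with EGFP in Alb-Cre, and 10.90 to 11.72 and 12.66 to 12.77 in wild type. The change was -0.40 ± 0.15 in Alb-Cre (adjusted p = 0.0847) and -1.25 ± 0.15 in wild type (adjusted p = 9.45e-06), with a difference of 0.85 ± 0.22 (adjusted p = 0.0178).

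Ugt2a3, which in humans glucuronidates bile acids, measured 6.68, 6.02 and 6.98 with IL-13 and 7.43, 7.47, 7.36 and 7.45 with EGFP in Alb-Cre. It measured 5.19, 4.81 and 5.31 with IL-13 and 7.49, 7.35, 7.64 and 7.65 with EGFP in wild type. Groups did not overlap in either genotype. It fell in Alb-Cre (-0.87 ± 0.18, adjusted p = 0.00274) and in wild type (-2.43 ± 0.18, adjusted p = 3.57e-08), with a difference of 1.56 ± 0.25 (adjusted p = 7.84e-04).

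Ugt2b1 measured 8.25, 7.86 and 8.88 with IL-13 and 8.75, 8.52, 8.42 and 8.44 with EGFP in Alb-Cre, where replicate 3 lay above every EGFP array. It measured 6.64, 6.36 and 6.83 with IL-13 and 8.59, 8.63, 8.40 and 8.34 with EGFP in wild type, without overlap. The change was -0.20 ± 0.19 in Alb-Cre (adjusted p = 0.510) and -1.88 ± 0.19 in wild type (adjusted p = 1.02e-06). The difference of 1.68 ± 0.26 passed (adjusted p = 6.59e-04).

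Of the other UGT2 genes, Ugt2b36 changed by -0.05 ± 0.15 in Alb-Cre (not called, adjusted p = 0.865) and fell in wild type (-0.76 ± 0.15, adjusted p = 6.45e-04), and the responses differed (0.71 ± 0.21, adjusted p = 0.0351). That difference was lost in 10 of the 14 fits that left out 1 array. Ugt2b34 did not pass in Alb-Cre (-0.34 ± 0.13, adjusted p = 0.0827) and fell in wild type (-0.89 ± 0.13, adjusted p = 5.93e-05). Ugt2b5 did not pass in either (-0.11 and -0.20). Ugt2b35 alone of these genes was higher with IL-13, by 0.62 ± 0.23 in Alb-Cre (not called, adjusted p = 0.0715) and 0.76 ± 0.23 in wild type (adjusted p = 0.0136). The wild-type rise of Ugt2b35 was 0.65 without IL-13 replicate 2 and no longer passed (adjusted p = 0.0675).

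**Figure D3:**
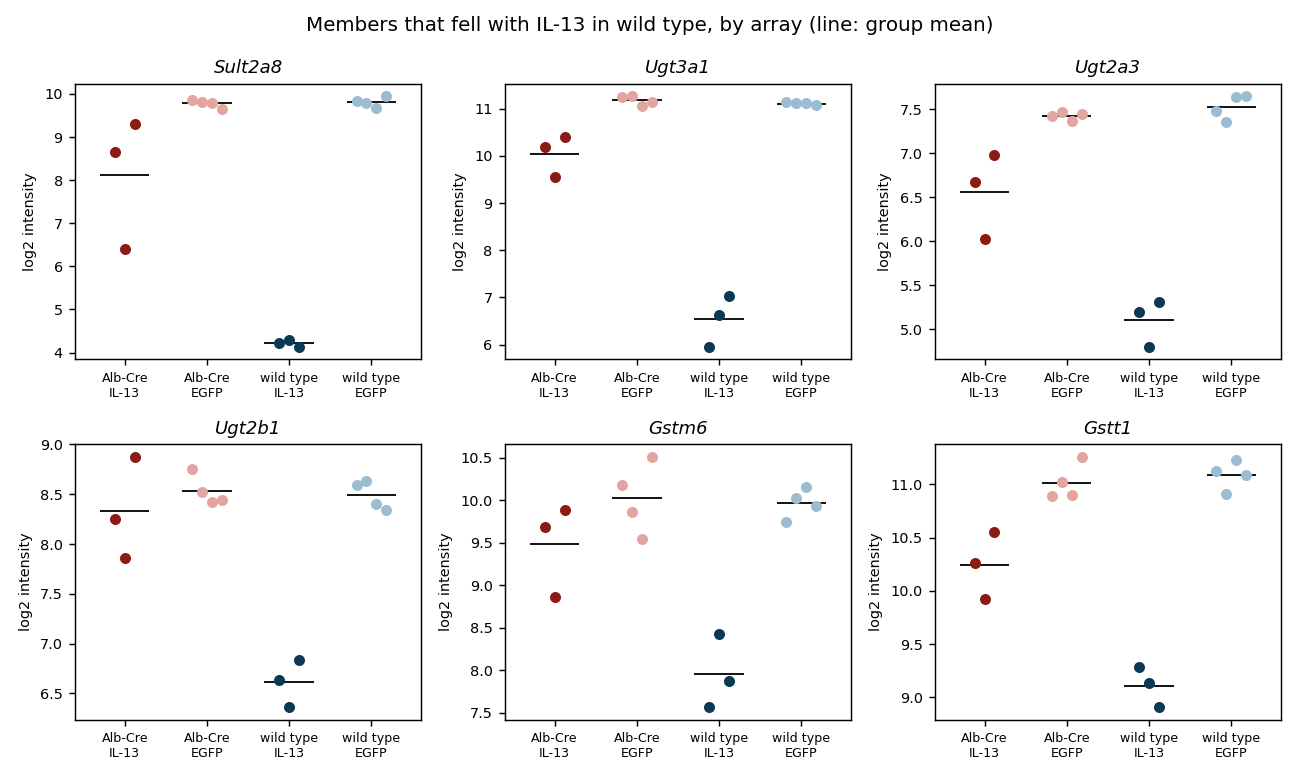
Normalised log2 intensity (y axis) of Sult2a8, Ugt3a1, Ugt2a3, Ugt2b1, Gstm6 and Gstt1 on every array, with groups along the x axis and a line at each group mean. The wild-type IL-13 arrays lie lowest for all 6 genes, without overlap with any other group, and among the Alb-Cre IL-13 arrays replicate 2 is the lowest for each.

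The SULT genes included the member with the largest fall in wild type. Sult2a8, which in mouse sulfates bile acids in liver, measured 8.65, 6.40 and 9.29 on Alb-Cre IL-13 arrays and 9.86, 9.81, 9.80 and 9.65 on Alb-Cre EGFP arrays. It measured 4.23, 4.29 and 4.14 on wild-type IL-13 arrays, where it was not detected, and 9.83, 9.80, 9.68 and 9.95 on wild-type EGFP arrays. The Alb-Cre IL-13 arrays spread over nearly 3 log2 units, with replicate 2 lowest. The change was -1.66 ± 0.43 in Alb-Cre (adjusted p = 0.0124). In wild type the level was at least 40.7-fold lower with IL-13 (-5.59 ± 0.43, adjusted p = 5.47e-08). Such a bound compares the mean of the brighter group with a floor for the dim group, taken on each array as the weakest signal still detected, or as the probe's signal where that was larger. The responses differed by 3.93 ± 0.61 (adjusted p = 5.57e-04), a size that, like the -5.59, rests on arrays where the probe was not detected and is not exact. Leaving out 1 array at a time gave Alb-Cre changes between -2.25 and -0.81, the last without IL-13 replicate 2, all of them called, and the change was -0.43 on slide 2 alone, which held 1 Alb-Cre IL-13 array (adjusted p = 0.265).

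Sult1c2 measured 5.29, 5.90 and 6.22 with IL-13 and 7.18, 7.60, 7.69 and 8.28 with EGFP in Alb-Cre. It measured 4.70, 4.91 and 4.35 with IL-13 and 7.74, 7.22, 7.99 and 7.86 with EGFP in wild type. The fall was -1.88 ± 0.26 in Alb-Cre (adjusted p = 6.91e-05) and -3.05 ± 0.26 in wild type (adjusted p = 1.52e-07), without overlap in either. The difference of 1.16 ± 0.36 passed narrowly (adjusted p = 0.0450), and 10 of the 14 fits that left out 1 array did not call it. Sult1c2 was detected on 2 of the 3 wild-type IL-13 arrays, near the background, so these sizes are not exact. With an offset of 50 in the background correction, in place of 16, the difference was 0.62 and did not pass (adjusted p = 0.187). With the authors' log2 values it was 0.48 and did not pass (adjusted p = 0.241).

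Sult1d1, which in mouse sulfates catecholamines, measured 8.42, 7.39 and 8.04 with IL-13 and 8.23, 9.42, 9.04 and 8.96 with EGFP in Alb-Cre, where EGFP replicate 1 lay among the IL-13 arrays. It measured 8.31, 7.96 and 8.60 with IL-13 and 9.15, 9.43, 9.58 and 9.55 with EGFP in wild type. It fell in Alb-Cre (-0.96 ± 0.26, adjusted p = 0.0161) and in wild type (-1.14 ± 0.26, adjusted p = 0.00216). A second, much dimmer Sult1d1 probe, detected on all 14 arrays, passed in neither genotype (-0.23 and -0.25). Without Alb-Cre IL-13 replicate 2 the Alb-Cre change was -0.68 and did not pass (adjusted p = 0.101).

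Sult3a1, a sulfotransferase of amines that is known as female-biased in mouse liver, lay near the background throughout. It measured 4.18, 4.20 and 4.17 with IL-13 and 4.31, 5.43, 4.78 and 5.03 with EGFP in Alb-Cre. It measured 4.26, 4.39 and 4.31 with IL-13 and 4.65, 5.10, 4.85 and 4.97 with EGFP in wild type. It was not detected on any IL-13 array and was at least 1.32-fold lower in Alb-Cre (adjusted p = 0.0152) and at least 1.34-fold lower in wild type (adjusted p = 0.0233). The wild-type call was lost without IL-13 replicate 1 or 3 or EGFP replicate 2 or 4. Sult5a1 did not pass in Alb-Cre (-0.07, adjusted p = 0.909). It was undetected on the wild-type IL-13 arrays and at least 2.05-fold lower there (adjusted p = 0.00763).

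Sult1a1, the main sulfotransferase of small phenols, was the SULT gene that rose. Its arrays ranged from 12.43 to 13.10 with IL-13 and from 11.60 to 12.59 with EGFP in Alb-Cre, and from 12.78 to 13.57 and from 12.30 to 12.54 in wild type. The change did not pass in Alb-Cre (0.55 ± 0.23, adjusted p = 0.111) and was a rise in wild type (0.72 ± 0.23, adjusted p = 0.0193). Without wild-type IL-13 replicate 3 the rise was 0.52 and did not pass (adjusted p = 0.107). Sult1b1 and the cholesterol sulfotransferase Sult2b1 did not pass in either genotype (-0.25 and 0.11 in Alb-Cre, -0.40 and -0.08 in wild type).

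The response to IL-13 differed between Alb-Cre and wild type for 12 members, 10 of them with a higher and 2 with a lower value of the difference, where 6.65% and 6.50% of all genes did so. Of the 10, 5 were UGT2 and UGT3 genes, 2 mu GSTs, 1 was Gstt1 and 2 were SULT genes, and the 2 lower ones were Gstt2 and Gstt3. The median difference over the members was 0.20 on the log2 scale, beside -0.01 over all genes. With the slide as a block 12 differed, as did 2 on slide 1 alone (Ugt3a1 and Ugt2b1) and 14 on slide 2 alone, where each genotype had 1 IL-13 array.

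Alb-Cre and wild-type arrays were also compared directly under each plasmid. Under IL-13, 13 members were higher in Alb-Cre and 2 lower, beside 10.7% and 11.2% of all genes, and the members' median was 0.24, beside -0.01. Higher were Ugt3a1 (3.51 ± 0.23, adjusted p = 5.27e-08), Ugt2b1 (1.72), Ugt2a3 (1.46), Ugt3a2 (0.81), Ugt2b36 (0.68) and Ugt2b34 (0.53) among the UGT2 and UGT3 genes. Sult2a8 was at least 12.6-fold higher (adjusted p = 2.40e-05) and Sult1c2 higher by 1.15 ± 0.27 (adjusted p = 0.00677). The Sult1c2 call was lost with an offset of 50 (0.61) and with the authors' log2 values (0.39). Among the GSTs, Gstm6 (1.53), Gstm4 (0.92), Gstm1 (0.90), Gstt1 (1.14) and Mgst3 (0.84) were higher, and Gstt2 (-1.74 ± 0.22, adjusted p = 4.29e-05) and Gstt3 (-1.55 ± 0.26, adjusted p = 5.18e-04) were lower. In GST alpha and UGT1, 0 members passed by the probe that stands for the gene. The second, dimmer Gsta3 probe was higher in Alb-Cre by 0.94 (limma over all kept probes, adjusted p = 0.00244). The Y-linked transcript was detected on 3 of 3 Alb-Cre and 1 of 3 wild-type IL-13 arrays. With that pattern as a covariate 14 members were higher and 1 lower, beside 6.81% and 6.14% of all genes. In that fit replicate 3 is the only wild-type IL-13 array compared, so these counts rest on it. The differences were 1.97 for Gsta4, 0.50 for Gsta3, -0.93 for Gstt3 and 0.53 for Ugt3a2. Gsta4 measured 6.65 on that array, beside 8.90 and 7.82 on wild-type IL-13 replicates 1 and 2. Gsta3 measured 12.68 there, beside 12.92 and 13.21. The Gstm4 call was lost without wild-type IL-13 replicate 1 or 3 or Alb-Cre IL-13 replicate 2 or 3, and that of Ugt2b34 without replicate 3 of either genotype. The value of Mgst3 was 0.54 without wild-type IL-13 replicate 3, and that of Ugt3a2 0.53 without wild-type IL-13 replicate 1. Fitting the slide as a block gave 16 members that differed, beside 2222 of all genes. Slide 1 alone gave 10, beside 922 of all genes, where the main fit had 2130. On slide 2 alone, with 1 IL-13 array of each genotype, the members' median was 0.49.

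Under EGFP, 0 of the 42 members differed between Alb-Cre and wild type, and the fit called 0% of all genes higher and 0% lower. At an unadjusted p under 0.05, limma gave 1 member, Sult1d1 (-0.52), and 364 of all genes. The members' median was -0.03. These comparisons share the EGFP or the IL-13 arrays with those above.

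**Figure D4:**
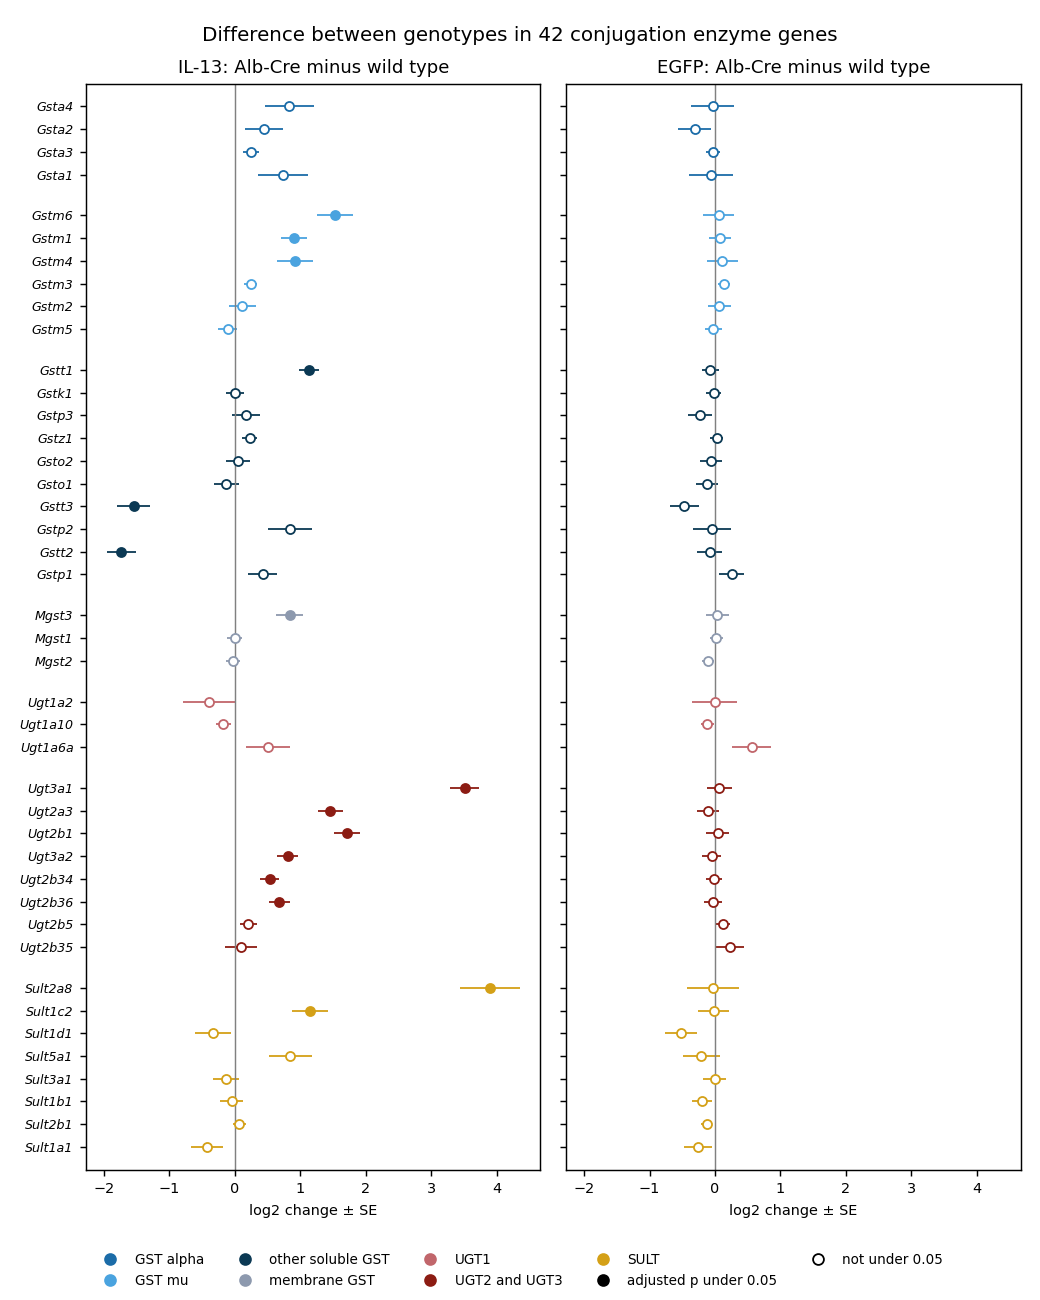
Log2 difference between genotypes (Alb-Cre minus wild type, x axis) of the 42 tested members under IL-13 (left) and under EGFP (right), with the standard error as a bar, filled where the adjusted p was under 0.05 and coloured by class. Under IL-13 the points range from -1.74 for Gstt2 to 3.90 for Sult2a8, and under EGFP none is filled.

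The sex pattern of the arrays moved with the Alb-Cre comparison. Of 13 male-biased liver genes that are not members, 9 rose and 0 fell with IL-13 in Alb-Cre, and 3 rose and 3 fell in wild type. Of 11 female-biased genes, 7 fell and 0 rose in each genotype. Without the covariate, 11.1% of all genes rose and 7.83% fell in Alb-Cre, and 21.5% rose and 19.2% fell in wild type. With the pattern as a covariate, 4 of the 42 members passed in Alb-Cre. Gsta1 rose (2.25, adjusted p = 0.0492) and so did Gstp1 (1.56, adjusted p = 0.0274), while Ugt3a1 (-1.86, adjusted p = 0.00293) and Ugt2a3 (-1.18, adjusted p = 0.0410) fell. In that fit 5.63% of all genes rose and 2.76% fell. The covariate is estimated from wild-type IL-13 replicate 3 against replicates 1 and 2 alone, so it makes the Alb-Cre changes less precise. For Gsta1, replicate 2 stood apart at 6.68, beside 4.59 and 4.86 on replicates 1 and 3. Its larger change with the covariate, 2.25 in place of 1.47, rests on that array. Its probe was detected on only 2 of the 4 Alb-Cre EGFP arrays. Pattern, slide and that single array cannot be told apart. Gstp2 had a change of 0.71 in that fit and did not pass, and Sult2a8 one of -1.54 (adjusted p = 0.295).

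In wild type the same covariate equals leaving out IL-13 replicate 3, which left 4 rises and 22 falls, beside 21.1% and 17.4% of all genes. Gsta2, Sult1a1 and Sult3a1 lost their calls and Gstt3 gained one. Without replicate 3, the difference of responses passed for 7 members upward and 2 downward, beside 1349 of all genes. In that fit 0 members of GST alpha and 0 membrane GSTs passed. With the covariate, by contrast, replicate 3 is the only wild-type IL-13 array in the difference. The calls that follow, such as those of Gsta4 and Mgst3, therefore rest on that array. The difference of responses with the covariate passed for 9 members upward and 1 downward, beside 4.94% and 4.22% of all genes. They were Gsta4, Gstm1, Gstm4, Gstt1, Mgst3, Sult2a8, Ugt2a3, Ugt2b1 and Ugt3a1 against Gstt2.

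**Figure D5:**
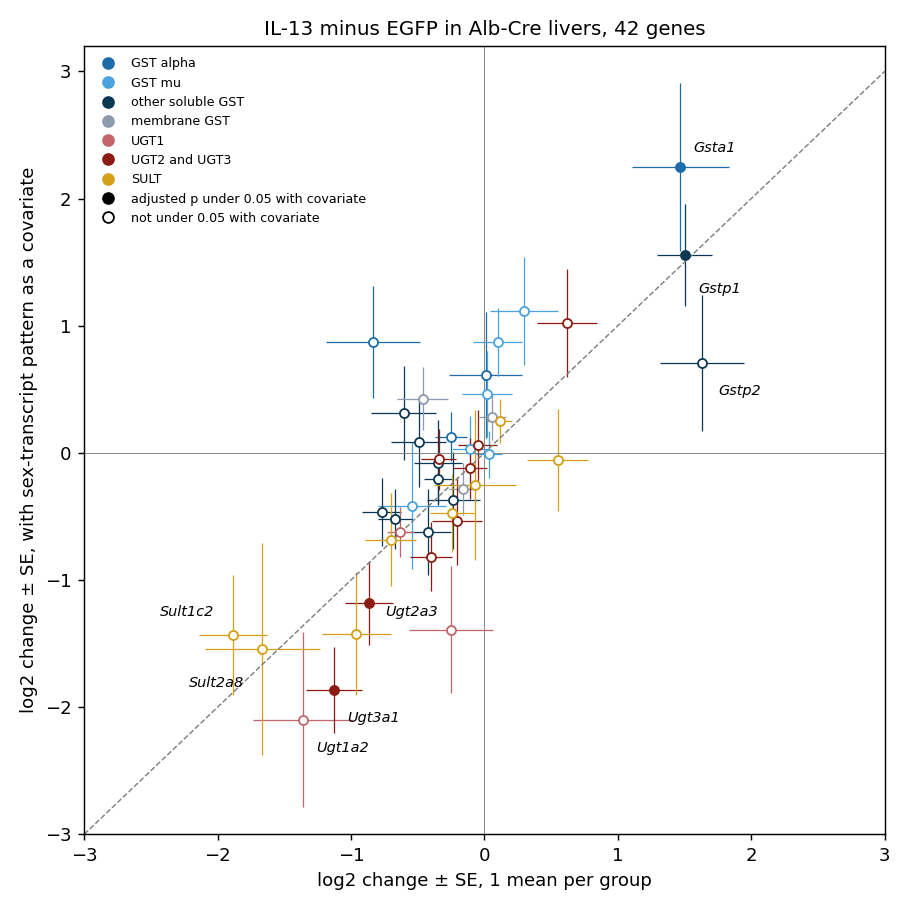
Log2 change with IL-13 in Alb-Cre with the sex pattern as a covariate (y axis) and without it (x axis), 1 point per tested member with standard errors as bars, coloured by class and filled where the adjusted p with the covariate was under 0.05, with some members named and a dashed line at equal values. The 4 filled members are Gsta1 (2.25), Gstp1 (1.56), Ugt3a1 (-1.86) and Ugt2a3 (-1.18), against 14 called without it.

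The co-substrates of the 3 reactions come from other enzymes, listed apart from the members. Of all genes, 11.1% rose and 7.83% fell with IL-13 in Alb-Cre, and 21.5% rose and 19.2% fell in wild type. The lists were not tested against these shares. For sulfation, of 7 genes of the PAPS supply tested 3 fell and 1 rose in Alb-Cre, and 4 fell and 1 rose in wild type. Papss2, the liver's main PAPS synthase, measured 6.06, 5.34 and 6.34 with IL-13 and 6.69, 7.78, 7.43 and 7.45 with EGFP in Alb-Cre. It measured 5.37, 4.75 and 4.80 with IL-13 and 7.67, 7.75, 7.74 and 7.54 with EGFP in wild type. It fell in Alb-Cre (-1.43 ± 0.25, adjusted p = 6.36e-04) and in wild type (-2.70 ± 0.25, adjusted p = 3.88e-07), and the sulfate transporter gene Slc26a1 fell in both too (-0.98 and -2.07). Slc35b3, which carries PAPS into the Golgi, did not pass in Alb-Cre (0.00) and rose in wild type (1.67 ± 0.12, adjusted p = 2.46e-08).

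For glutathione conjugation, 2 of 13 genes of glutathione supply and recycling rose and 0 fell in Alb-Cre, and 4 rose and 0 fell in wild type. Rises made up 11.1% of all genes in Alb-Cre and 21.5% in wild type, and falls 7.83% and 19.2%. Chac1, which breaks down glutathione, rose in Alb-Cre (1.94 ± 0.56, adjusted p = 0.0233) and in wild type (4.64 ± 0.56, adjusted p = 7.85e-06). The dipeptidase Dpep1, undetected on EGFP arrays, was at least 2.52-fold higher in Alb-Cre and at least 3.43-fold higher in wild type. Gclm, a subunit of the rate-limiting enzyme of glutathione synthesis, rose in wild type (0.89 ± 0.18, adjusted p = 9.88e-04). For glucuronidation, of 6 genes 1 rose and 0 fell in Alb-Cre, and 1 rose and 1 fell in wild type. The fall was that of Ugp2, which makes UDP-glucose (-1.32 ± 0.20, adjusted p = 7.78e-05), and the rise in both genotypes that of the glucuronidase Gusb (0.53 and 0.38).

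Of 17 regulators of conjugation genes, 6 fell and 0 rose in Alb-Cre and 10 fell and 0 rose in wild type. Beside them, 7.83% of all genes fell and 11.1% rose in Alb-Cre, and 19.2% fell and 21.5% rose in wild type. Nfe2l2, the gene of Nrf2, fell in Alb-Cre (-0.54 ± 0.14, adjusted p = 0.0112) and in wild type (-0.99 ± 0.14, adjusted p = 2.64e-05). Nr1i3, the drug-sensing receptor CAR, fell in Alb-Cre (-1.46 ± 0.19, adjusted p = 3.64e-05) and in wild type (-0.64 ± 0.19, adjusted p = 0.0116). Nr1i2, the receptor PXR, fell in wild type (-1.01 ± 0.21, adjusted p = 0.00125), as did the growth hormone receptor gene Ghr (-1.20 ± 0.18, adjusted p = 5.58e-05). Cux2, a female-biased repressor in mouse liver, fell in Alb-Cre (-2.83 ± 0.37, adjusted p = 5.28e-05) and in wild type (-1.42 ± 0.37, adjusted p = 0.00602).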

How the data were processed

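Total liver RNA of 14 mouse samples was amplified and hybridised to Illumina bead arrays, and titles gave each sample's plasmid and genotype. Per the file headers, the authors deposited a linear intensity and a detection p-value for every probe and array. GenomeStudio 2011.1 is named in the submitters' processing notes. A second deposited table holds log2 values, which were the logarithms of the same intensities multiplied by a constant for each array (4.52 to 4.85). This table was tried as an alternative.

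The background was corrected with limma 3.58.1 (R 4.3.3) by normexp from the detection p-values (offset 16), then applied quantile normalisation and log2. Of 25697 probes, 23978 carried 1 gene symbol in the platform's annotation and 1719 none. A probe was kept when detected at p under 0.05 on at least 3 arrays (14109 probes), and the brightest kept probe stood for a gene. The members had 71 probes, of which 57 were kept, and 12 members had more than 1. Family members are similar in sequence, and a probe can bind a relative's transcript. RefSeq lists 70 genes under the member symbols, and 19 of them have no probe under their name and are not analysed here. A model with 1 mean per group over 14 arrays (10 residual degrees of freedom) was tested two-sided over 9711 genes, with Benjamini-Hochberg adjustment. The fit was first checked on simulated normalised log2 values, with known changes added in the wild-type IL-13 group. That check did not cover the background correction, the normalisation or the sex pattern. Motifs were searched with Python 3.11.15.

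Replicates of a group correlated at 0.980 to 0.993, and the number of arrays (3 or 4 a group) limits the precision. Values on every array were given, per class, for the members with the largest called changes, plus Gstp1, Gsta4, Gstm3, Mgst1 and Sult3a1. Other members were given by log2 changes and ranges. Gene lists outside the members covered co-substrate supply, regulators, exporters and markers. The members and lists were chosen with earlier results of these data known. Alternatives changed the normalisation, filter, probe rule, slide, replicate number, sex pattern, samples fitted, variance model and array weights.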

Additional observations from a re-analysis of the deposited data

Results flagged for a closer look

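In 12 members the response to IL-13 differed between genotypes by the test of the difference itself (Alb-Cre minus wild type, log2). The differences were 3.93 for Sult2a8, 3.44 for Ugt3a1, 1.68 for Ugt2b1, 1.56 for Ugt2a3, 1.47 for Gstm6, 1.21 for Gstt1, 1.16 for Sult1c2, 0.85 for Ugt3a2, 0.82 for Gstm1 and 0.71 for Ugt2b36. The size for Sult2a8 is not exact, since its probe was not detected on the wild-type IL-13 arrays. The differences below 0 were -1.08 for Gstt3 and -1.66 for Gstt2. The Y-linked transcript was detected on all 3 Alb-Cre IL-13 arrays, against 1 of 3 wild-type IL-13 arrays. With that pattern as a covariate, replicate 3 is the only wild-type IL-13 array compared. In that fit Gstm6, Gstt3, Sult1c2, Ugt2b36 and Ugt3a2 lost their calls among these members.

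In the EGFP groups of 4 arrays, 4 values stood far from the other three. Gstm2 was low on Alb-Cre EGFP replicate 3 (11.52, where the nearest array had 11.82), Mgst3 on Alb-Cre EGFP replicate 1 (9.04, nearest 9.49) and Gsto2 on wild-type EGFP replicate 3 (4.97, nearest 5.41), while Sult5a1 was high on wild-type EGFP replicate 2 (5.92, nearest 5.42). They came from 84 groups of 4 arrays examined, and a rule of this kind marks about 1 in 20 by chance.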

How the results depend on the processing

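Of the counts of members changed, 4 moved by over 1.5 times. For IL-13 in Alb-Cre, 14 members changed, and 4 did with the sex pattern as a covariate, 8 on slide 1 alone and 8 on slide 2 alone. For the difference of responses, 12 members changed, and 2 did on slide 1 alone. The smaller slide fits hold fewer arrays. Over all genes, 851 changed in Alb-Cre and 226 differed in response on slide 1 alone, where the main fit had 1840 and 1277. No log2 change of a called member reversed its sign. Leaving out 1 array at a time gave 12 to 18 members for Alb-Cre, 24 to 28 for wild type, 8 to 15 for the difference, 13 to 18 for the genotypes under IL-13 and 0 to 0 under EGFP. With the replicate number as a block the counts were 13, 28, 12, 15 and 0. Replicate numbers did not pair the samples, since of 19 same-numbered pairs 3 had deviations correlated above 0.1 (-0.12 to 0.28), and for some samples titles and descriptions give different numbers. Some members were called in every fit that tested them, over all alternatives and without any 1 array. They numbered 2 of 14 in Alb-Cre (Gstp1 and Ugt3a1), 19 of 28 in wild type, 7 of 15 for the genotypes under IL-13 and 2 of 12 for the difference (Ugt2b1 and Ugt3a1). The 19 include Sult1c2, Sult2a8 and Sult5a1, and the 7 include Sult2a8. These genes were not detected on all 14 arrays, so the alternative that required this did not test them. Over all genes, the count for Alb-Cre was 1840, and 815 with the sex pattern, and that for the genotypes under IL-13 was 2130, and 1235 with only those 2 groups fitted. Signal over background limits Gstm3, Mgst2, Sult1b1, Sult2a8, Sult2b1, Sult3a1 and Sult5a1, which were undetected in at least 1 group. It also limits Sult1c2, detected on 2 of 3 wild-type IL-13 arrays, and Gsta1, detected on 2 of 4 Alb-Cre EGFP arrays.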

Other observations

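Of 13 conjugating enzymes outside the 3 families, 2 rose and 0 fell with IL-13 in Alb-Cre, and 1 rose and 4 fell in wild type. Of all genes 11.1% rose and 7.83% fell in Alb-Cre, and 21.5% rose and 19.2% fell in wild type, so these counts say nothing particular of the list. Inmt, an amine methyltransferase, measured 9.80, 11.18 and 12.61 with IL-13 and 12.93 to 13.08 with EGFP in Alb-Cre, and 9.21, 7.03 and 4.99 with IL-13 and 12.75 to 13.62 with EGFP in wild type. It did not pass in Alb-Cre (-1.83 ± 0.72, adjusted p = 0.0884) and fell in wild type (-6.02 ± 0.72, adjusted p = 6.51e-06), with a difference of 4.19 ± 1.01 (adjusted p = 0.0129). Nat8, an acetyltransferase of the mercapturate pathway that completes glutathione conjugates, rose in Alb-Cre (2.54 ± 0.29, adjusted p = 1.00e-05) and did not pass in wild type (0.46 ± 0.29, adjusted p = 0.227). Of 5 conjugate exporters, 2 fell and 0 rose in Alb-Cre, and 2 fell and 1 rose in wild type, with the bile salt export pump gene Abcb11 falling in both (-1.13 and -2.99) and Abcg2 rising in wild type (0.75).

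Among the 24 members that fell in wild type, the lowest Alb-Cre IL-13 array was replicate 2 for 14, replicate 1 for 9 and replicate 3 for 1. For the wild-type IL-13 arrays the corresponding counts were 7 for replicate 2, 7 for replicate 1 and 10 for replicate 3.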
